A study of Mus musculus with 9 samples.

Results

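The nuclear-encoded subunits of the respiratory chain and of ATP synthase were followed in mouse cells given doxorubicin, with or without interferon gamma. Members were the transcript clusters (the probes grouped for 1 transcript) with a single gene symbol that begins with Ndufa, Ndufb, Ndufc, Ndufs or Ndufv and a number, is Sdha, Sdhb, Sdhc or Sdhd, or begins with Uqcr, Cox4 to Cox8 or Atp5. Symbols marked -ps in the platform annotation were left out. The rule goes by symbol, so it also kept Atp5l2 and Atp5sl, which were listed as related genes of complex V rather than subunits. The rule gave 86 clusters with 82 gene symbols, of 30376 single-symbol clusters measured. By complex these were 32 clusters of complex I, 4 of complex II, 8 of complex III, 20 of complex IV and 22 of complex V, the last with 18 symbols. Ndufa4, a subunit first assigned to complex I and now placed with complex IV, and its paralogue Ndufa4l2 were counted with complex IV.

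Total RNA was hybridised to 9 Affymetrix arrays, 3 per group, from HL-1 cells, an immortalized line from mouse atrial heart muscle. DOX_IFNg cells received 0.3 µM doxorubicin and 20 ng/ml interferon gamma (IFN-γ), DOX cells received 0.3 µM doxorubicin, and Con cells received PBS. All groups shared the line and its medium, and cells given interferon gamma without doxorubicin were not analysed here, so that cytokine was compared here only on top of the drug. The labels do not say whether the 3 arrays of a group came from separate cultures, so p-values measure only the spread between arrays, which may be technical, and how long the cells were treated is not given in the sources used here.

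In mitochondria, complex I (NADH dehydrogenase) and complex II (succinate dehydrogenase) pass electrons to ubiquinone, complex III passes them to cytochrome c, and complex IV (cytochrome c oxidase) passes them to oxygen. Complexes I, III and IV pump protons, and complex V, the ATP synthase, lets them back through a rotating ring of c subunits to make ATP. Heart muscle is rich in these complexes and, with skeletal muscle, uses its own forms of some complex IV subunits, while doxorubicin is an anthracycline known for its toxicity to the heart.

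Values are log2 expression, and a difference of 1 is a 2-fold change. Averaged over all arrays, 60 of the 86 members lay above 4.69, the 95th percentile of 1718 clusters of olfactory and vomeronasal receptors. That limit served as a mark for dim probes, whose changes can be understated. Above it lay 26 members of complex I, 3 of complex II, 5 of complex III, 11 of complex IV and 15 of complex V. Most heart muscle markers did not show the atrial muscle origin given for the line, while most skeletal muscle and fibroblast markers were above the limit. Of 9 heart muscle markers measured, Nkx2-5 and Tnnt2 lay above the limit, and Myh6, Myl7, Nppa, Gata4, Ryr2, Tnni3 and Myl4 did not. Skeletal muscle markers lay above it in 5 of 7 cases, fibroblast markers in 3 of 4, endothelial markers in 0 of 4 and immune markers in 0 of 4. The mean log2 level of the fibroblast list was 10.36 to 10.43 in DOX_IFNg, 10.43 to 10.44 in DOX and 11.4 to 11.5 in Con. The mean of the skeletal muscle list was 5.31 to 5.39 in DOX_IFNg, 5.38 to 5.51 in DOX and 6.01 to 6.13 in Con. The mean of the heart muscle list was 4.59 to 4.64 in DOX_IFNg, 4.60 to 4.66 in DOX and 4.75 to 4.76 in Con, although the median of its genes' differences was above 0, at 0.045 in DOX_IFNg and 0.012 in DOX. Of that list Tnnt2 was called lower in both, at -1.42 in DOX_IFNg and -1.24 in DOX, and Nkx2-5 in DOX_IFNg (-0.27). The means of all 3 lists were higher in Con. Within the skeletal muscle list 4 genes were called lower in both comparisons. Myod1 was called higher in DOX, by 0.76 (adjusted p = 0.0183), while no gene of the list was called higher in DOX_IFNg. The Myod1 call was lost when array 1 or 3 of Con, or array 1 or 2 of DOX, was left out. The part of these cell types in the results below was not tested. The first principal component of all clusters held 59.8% of the variance, with treated arrays at 17.5 to 26.8 and Con arrays at -50.2 to -34.6. Single arrays are named by group and number. The second component set Con 3, at -23.7, apart from Con 2 at 11.5 and Con 1 at 21.3. Pairs of arrays formed by Con 1, any DOX array, DOX_IFNg 1 or DOX_IFNg 2 shared 82 to 186 exactly identical values, against 1 to 17 in other pairs. These arrays thus form a set that is spread unevenly over the groups. The arrays outside it, Con 2, Con 3 and DOX_IFNg 3, shared only 3 to 10 values with one another. The array set term used below still treats them as alike.

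Doxorubicin-treated cells carried less RNA for 16 of the 86 subunit clusters, 7 of them of complex V and 5 of complex IV, and more for Cox6a2, a complex IV subunit form found in heart and skeletal muscle. In DOX minus Con, 16 members were called lower and 2 higher at an adjusted p under 0.05, which is 20.9% of the members, while 68 did not pass. Of all clusters tested, 15.5% were called, 7.52% lower and 7.98% higher. The members' shares were 18.6% lower and 2.33% higher. Brighter clusters were called more often in general: among the 60 members above the limit, 14 (23.3%) were called lower and 2 (3.33%) higher, against 15.7% lower and 17.2% higher of all 12212 clusters above it. The share of these 60 called in either direction, 26.7%, was below the 33% of all such clusters. After quantile normalization of the deposited values the split moved, to 15 members lower and 5 higher and, of all clusters, 1906 lower and 3072 higher, against 2284 and 2423 without it. The median difference over the 86 members was -0.11, against -0.02 over all clusters. It was -0.052 with a term for the array set, which holds all DOX arrays but only 1 of the Con arrays. In these bulk samples, fewer cells of a type and less RNA per cell cannot be told apart.

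With interferon gamma added, the counts against the same Con arrays were larger. In DOX_IFNg minus Con, 27 members were called lower and 1 higher, which is 32.6% of the members, against 17.3% of all clusters, 9.36% lower and 7.92% higher. Of the 60 members above the limit, 22 were called lower and 1 higher, 38.3% in all, against 36.6% of all such clusters, of which 19.6% were lower and 17% higher. After quantile normalization, 24 members were lower and 2 higher, and of all clusters 2288 were lower and 3081 higher, against 2843 and 2406 without it. The median difference over the members was -0.16, against -0.02 over all clusters. The count of lower calls fell to 17 without Con 2, 17 without DOX_IFNg 1 and 16 without DOX_IFNg 2. In DOX minus Con, the count of higher calls was 1 without Con 2, DOX 1 or DOX 2, and 4 without DOX 3. Both comparisons rest on the same 3 Con arrays, so they are not independent. Side by side, 17 clusters passed in both, Ndufa6 passed in DOX minus Con only, 11 passed in DOX_IFNg minus Con only, and 57 in neither.

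The medians of the 86 members on single arrays were 5.28 to 5.34 in DOX_IFNg, 5.33 to 5.43 in DOX and 5.41 to 5.51 in Con. All DOX_IFNg medians thus lay below all Con medians, while DOX overlapped both groups. In DOX minus Con, 31 of the 86 members had all 3 DOX arrays below all 3 Con arrays and 8 of 86 had them above, while 17.2% and 15.6% of all clusters did so. In DOX_IFNg minus Con the counts were 45 of 86 below and 3 of 86 above, against 18.5% and 14.4% of all clusters. These shares were not computed for all clusters above the dim limit, where most members lie and calls are more frequent.

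**Figure D1:**
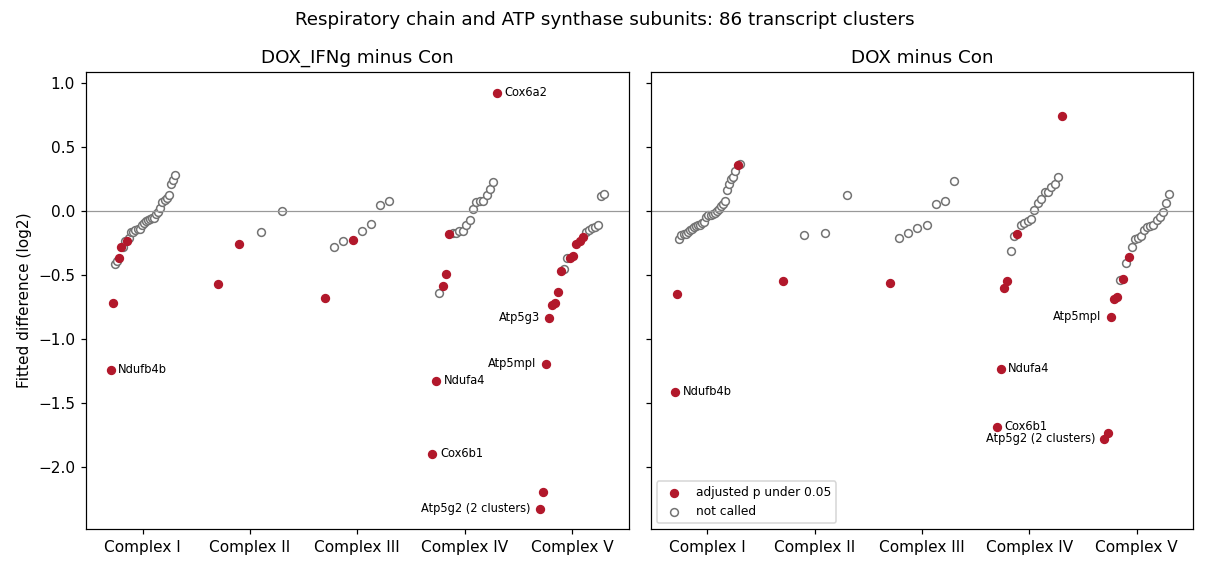
Fitted log2 differences of the 86 clusters by complex, DOX_IFNg minus Con on the left and DOX minus Con on the right, each point 1 cluster, ordered by size within its complex and filled where the adjusted p was under 0.05. In complex V, 13 of 22 clusters were called lower in DOX_IFNg and 7 of 22 in DOX, against 9.36% and 7.52% of all clusters. Cox6a2 of complex IV lies above the rest at 0.93 and 0.74.

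Complex V had 13 of 22 clusters called lower in DOX_IFNg and 7 of 22 in DOX, against Con, and none higher. The lower calls were 59.1% and 31.8% of its clusters, against 9.36% and 7.52% of all clusters. Of all clusters above the dim limit, where 15 of the 22 lay, 19.6% and 15.7% were lower. Its median difference was -0.36 in DOX_IFNg minus Con and -0.22 in DOX minus Con, the second being -0.40 over the 15 clusters kept by the filter on dim ones and -0.14 with the array set term. The lower count in DOX_IFNg was 8 without DOX_IFNg 1, 8 without DOX_IFNg 2 and 9 without Con 2. The largest falls were in the c ring. Atp5g1, Atp5g2 and Atp5g3 encode the same mature c subunit, each with its own mitochondrial targeting sequence. Their promoters are shown here because Atp5g2 had the largest falls of all members while Atp5g1, for the same protein, was not called. RefSeq (GRCm38.p6) gives 300 bases for each, 250 before and 50 after the start site, and capitals mark matches, on either strand, to the NRF-1 core (GCGCA, any base, then GCGC) or to CCAAT. NRF-1 is a transcription factor known to act on many nuclear genes of the respiratory chain.
Atp5g1 (chr11:96075582-96075881, minus strand): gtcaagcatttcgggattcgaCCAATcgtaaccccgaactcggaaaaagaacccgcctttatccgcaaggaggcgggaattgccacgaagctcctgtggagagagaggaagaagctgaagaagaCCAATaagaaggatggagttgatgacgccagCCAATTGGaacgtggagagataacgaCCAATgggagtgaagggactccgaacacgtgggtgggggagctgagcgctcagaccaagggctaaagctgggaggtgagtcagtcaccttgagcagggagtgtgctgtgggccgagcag
Atp5g2 (chr15:102670998-102671297, minus strand): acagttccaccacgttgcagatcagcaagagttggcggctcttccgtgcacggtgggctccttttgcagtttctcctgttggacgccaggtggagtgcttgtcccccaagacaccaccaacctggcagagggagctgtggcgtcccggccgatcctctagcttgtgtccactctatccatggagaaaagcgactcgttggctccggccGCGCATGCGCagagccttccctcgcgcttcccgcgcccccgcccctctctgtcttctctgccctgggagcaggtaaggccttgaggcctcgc
Atp5g3 (chr2:73911277-73911576, minus strand): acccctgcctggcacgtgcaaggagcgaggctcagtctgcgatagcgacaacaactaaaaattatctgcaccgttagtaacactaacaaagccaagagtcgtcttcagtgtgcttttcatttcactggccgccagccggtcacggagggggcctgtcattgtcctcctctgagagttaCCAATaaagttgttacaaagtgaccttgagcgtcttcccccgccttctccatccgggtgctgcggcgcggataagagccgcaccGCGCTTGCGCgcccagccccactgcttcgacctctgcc
The Atp5g1 promoter held 5 CCAAT matches, of which those at positions -95 and -92 from the start overlap, and no NRF-1 core. That of Atp5g2 held 1 NRF-1 core, from position -42, and no CCAAT. That of Atp5g3 held 1 NRF-1 core, from position 13, and 1 CCAAT, from position -72. The table held 71 promoters for 66 of the 82 symbols, and 32851 promoters in all. The NRF-1 core lay in 15 member promoters (21.1%) and in 4.60% of all, and CCAAT in 29 (40.8%) and 37.4% of all. Further motifs searched on both strands in the same windows were CCGGAAG, read by Ets factors, in 17 member promoters (23.9%) and 8.86% of all. AAGATGGC, read by YY1, lay in 11 (15.5%) and 2.75% of all, and CAGCTG, a muscle E-box, in 6 (8.45%) and 16.3% of all. A match describes letters only.

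Atp5g2 had 2 clusters. The cluster named for chromosome 15, where RefSeq places the gene, had 12.01, 12.36 and 12.30 in DOX_IFNg, 12.70, 12.74 and 12.48 in DOX and 14.24, 14.42 and 14.60 in Con. Every treated array lay below every Con array, and the DOX_IFNg arrays lay below the DOX arrays. It fell by 2.20 in DOX_IFNg (SE 0.12, adjusted p = 1.66e-05, 4.59-fold lower) and by 1.78 in DOX (SE 0.12, adjusted p = 4.05e-05, 3.44-fold lower), both against Con. The other cluster is named for chromosome 7, and had 11.23, 11.28 and 11.71 in DOX_IFNg, 12.04, 12.07 and 11.88 in DOX and 13.53, 13.83 and 13.84 in Con. It fell by 2.33 in DOX_IFNg (SE 0.14, adjusted p = 2.30e-05) and fell by 1.73 in DOX (SE 0.14, adjusted p = 8.98e-05). As a description over the 9 arrays, which fall into treated and control sets, the 2 clusters moved together in both treated groups. A further cluster, annotated to both Gm10231 and Atp5g2 and so no member, differed by -1.61 in DOX_IFNg (SE 0.13, adjusted p = 0.000139) and by -1.14 in DOX (SE 0.13, adjusted p = 0.000965), in a fit of every cluster of the table. These clusters may share probes with near-identical copies, and how much of each value comes from the gene on chromosome 15 was not tested.

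Atp5g3 had 6.46, 6.63 and 6.70 in DOX_IFNg, 6.63, 6.89 and 6.77 in DOX and 7.37, 7.41 and 7.52 in Con. The treated arrays lay below the Con arrays without overlap. It fell by 0.83 in DOX_IFNg (SE 0.09, adjusted p = 0.000348) and by 0.67 in DOX (SE 0.09, adjusted p = 0.00115). Atp5g1 had 5.76, 5.89 and 5.91 in DOX_IFNg, 6.06, 6.13 and 5.98 in DOX and 5.91, 5.99 and 6.06 in Con. Its groups overlapped with Con in both comparisons. The difference was -0.13 in DOX_IFNg (95% interval -0.28 to 0.02, adjusted p = 0.237) and 0.07 in DOX (95% interval -0.09 to 0.22, adjusted p = 0.604). Both intervals leave out a fall as large as those of Atp5g2 and Atp5g3. The difference in change between the c subunit genes was not itself tested.

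The catalytic F1 head had 4 genes among the members. Atp5a1 encodes the alpha subunit and had 6.12, 6.22 and 6.15 in DOX_IFNg, 6.23, 6.13 and 6.15 in DOX and 6.61, 6.50 and 6.47 in Con. All treated arrays lay below all Con arrays. It fell by 0.36 in DOX_IFNg (adjusted p = 0.00283) and by 0.35 in DOX (adjusted p = 0.00345), with an SE of 0.06 in each. Atp5b, the beta subunit that carries the catalytic sites, fell by 0.35 in DOX_IFNg (SE 0.08, adjusted p = 0.0228), and its difference of -0.22 in DOX did not pass (adjusted p = 0.127). Atp5d, the delta subunit of the central stalk, had 4.82, 4.79 and 4.77 in DOX_IFNg, 4.84, 4.91 and 4.79 in DOX and 5.45, 5.58 and 5.54 in Con, in the brighter of its 2 clusters. These groups are far apart for their spread. That cluster fell by 0.73 in DOX_IFNg (adjusted p = 5.35e-05) and by 0.68 in DOX (adjusted p = 8.13e-05), with an SE of 0.05 in each. The dimmer Atp5d cluster, with a mean of 4.16 under the limit, differed by 0.14 in DOX_IFNg (adjusted p = 0.295) and -0.05 in DOX (adjusted p = 0.769), so the 2 clusters of the gene disagree. Atp5e, the epsilon subunit, fell by 0.46 in DOX_IFNg (SE 0.11, adjusted p = 0.0187), and its -0.28 in DOX did not pass (adjusted p = 0.128). The DOX_IFNg calls of Atp5b and Atp5e were lost without DOX_IFNg 1, that of Atp5b also without Con 2 and that of Atp5e also without DOX_IFNg 2, with adjusted p-values of up to 0.0799 and 0.0703.

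The peripheral stalk, which holds the head still while the ring turns, had 3 of 4 genes called lower in DOX_IFNg and none in DOX. Of all clusters, 9.36% were called lower in DOX_IFNg and 7.52% in DOX. Atp5f1 fell by 0.23, Atp5j by 0.20 and Atp5o, the subunit known for oligomycin sensitivity, by 0.26 in DOX_IFNg, with adjusted p-values of 0.0297, 0.0326 and 0.0276. In DOX the same genes differed by -0.12, -0.15 and -0.11, and none passed (adjusted p = 0.231, 0.102 and 0.333). Atp5h, a further stalk subunit, differed by -0.11 in DOX_IFNg and -0.07 in DOX and did not pass. Atp5j and Atp5o averaged under the dim limit. The DOX_IFNg calls of these genes depended on single arrays: leaving out 1 array at a time gave adjusted p-values of up to 0.0919 for Atp5f1, 0.109 for Atp5j and 0.0754 for Atp5o. Atp5f1 lost its call without Con 1, Con 2, DOX 1, DOX_IFNg 2 or DOX_IFNg 3. Atp5j lost it without any Con array, any DOX_IFNg array or DOX 1, and Atp5o without Con 1, Con 3 or DOX_IFNg 1.

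Among the small subunits of the membrane part, Atp5mpl had 5.99, 5.77 and 5.69 in DOX_IFNg, 6.18, 6.32 and 6.05 in DOX and 7.41, 6.57 and 7.07 in Con. The treated arrays all lay below Con, whose own 3 arrays spread over a wider range than either treated group. It fell by 1.20 in DOX_IFNg (SE 0.19, adjusted p = 0.00303) and by 0.83 in DOX (SE 0.19, adjusted p = 0.0195). Atp5md had 6.75, 6.68 and 6.72 in DOX_IFNg, 6.87, 6.88 and 6.71 in DOX and 7.68, 7.32 and 7.05 in Con. Again Con was the most spread and did not overlap with the treated arrays. It fell by 0.63 in DOX_IFNg (SE 0.14, adjusted p = 0.0138) and by 0.53 in DOX (SE 0.14, adjusted p = 0.0328). The DOX call of Atp5mpl was lost without Con 3, DOX 1 or DOX 3 (adjusted p up to 0.0689). The DOX call of Atp5md was lost without Con 2, any DOX array, DOX_IFNg 2 or DOX_IFNg 3 (up to 0.106), and its DOX_IFNg call without DOX_IFNg 2 (0.0514).

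Atp5l, the g subunit, had 3 clusters that disagreed. The brightest is named for chromosome 5, while RefSeq places the gene on chromosome 9, and had 7.69, 7.74 and 7.88 in DOX_IFNg, 7.98, 8.33 and 7.54 in DOX and 8.48, 8.53 and 8.46 in Con. It fell by 0.72 in DOX_IFNg (SE 0.17, adjusted p = 0.0205) and differed by -0.54 in DOX (adjusted p = 0.0704). The DOX arrays were the most scattered, and the DOX_IFNg call was lost without Con 2, DOX_IFNg 1 or DOX_IFNg 2 (adjusted p up to 0.0682). The clusters named for chromosome 9 averaged 4.47 and 3.58, both under the limit, and did not pass, with differences of -0.16 and -0.14 in DOX_IFNg and -0.00 and -0.19 in DOX. Which locus the brightest cluster measures was not tested. Atp5k, Atp5j2, Atp5l2 and Atp5sl were not called in either comparison, with differences from -0.45 to 0.12 in DOX_IFNg and from -0.40 to 0.13 in DOX. RefSeq names Atp5l2 as Atp5l2-ps, a pseudogene symbol, and Atp5sl as Dmac2. Both are related genes that stay in the counts of complex V. The highest mean level in complex V was the 13.1 of Atp5g2 and the lowest the 3.58 of Atp5l, levels that describe probes and do not rank the genes. Outside the rule, the pseudogene cluster Atp5c1-ps differed by -0.44 in DOX_IFNg (adjusted p = 0.0125) and -0.31 in DOX (adjusted p = 0.0654), and Atp5l-ps1 by -0.34 and -0.15, neither of which passed.

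**Figure D2:**
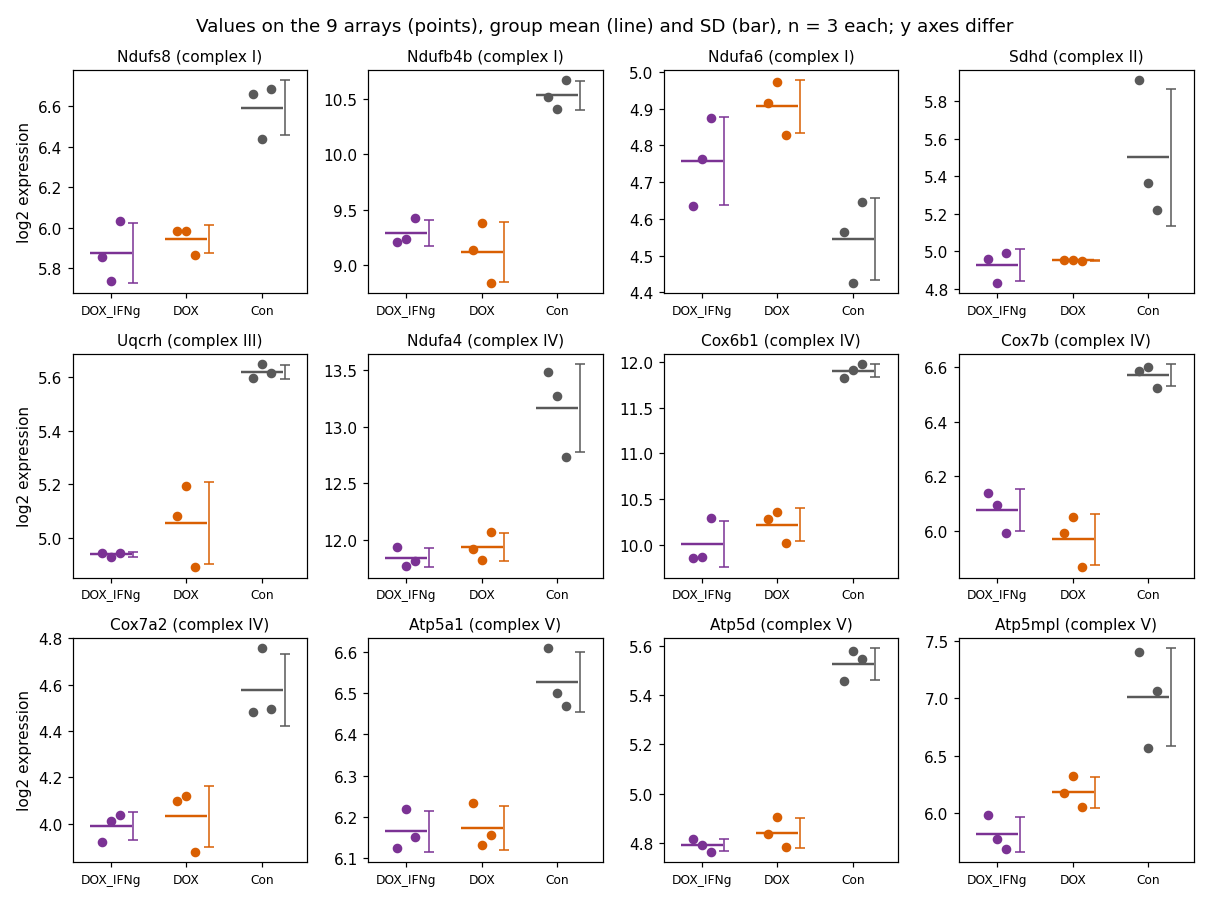
Log2 expression of 12 members on each of the 9 arrays (points), with the group mean (line) and SD (bar), n = 3 per group and a separate y axis per panel. Treated points lie below all Con points in every panel except that of Ndufa6, where 1 DOX_IFNg point, at 4.64, falls within the Con range and the others lie above it.

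In complex IV, 5 of 20 clusters were called lower and 1 higher in both DOX_IFNg and DOX, against Con. The lower calls were 25% of its clusters in each, against 9.36% of all clusters in DOX_IFNg and 7.52% in DOX. Of all clusters above the dim limit, where 11 of the 20 lay, 19.6% and 15.7% were lower. Called in either direction were 30% of complex IV, against 36.6% and 33% of all clusters above the limit. Its median difference in DOX_IFNg was -0.13, and -0.084 without DOX_IFNg 1. In DOX the median had no settled sign, at -0.069, 0.0062 without DOX 1, 0.013 with the filter on dim clusters and -0.0073 with the array set term. Cox6b1, a subunit that faces the intermembrane space, had 9.85, 9.87 and 10.30 in DOX_IFNg, 10.28, 10.36 and 10.02 in DOX and 11.83, 11.91 and 11.98 in Con. No treated array came near the Con arrays, which were close together. It fell by 1.90 in DOX_IFNg (SE 0.13, adjusted p = 4.28e-05, 3.74-fold lower) and by 1.69 in DOX (SE 0.13, adjusted p = 8.16e-05, 3.22-fold lower). Its testis form Cox6b2 was dim and did not pass, at -0.17 and -0.08. Ndufa4 had 11.93, 11.77 and 11.81 in DOX_IFNg, 11.92, 11.82 and 12.06 in DOX and 13.49, 13.28 and 12.73 in Con. Con 3 was the lowest Con array and still lay above all treated arrays. Ndufa4 fell by 1.33 in DOX_IFNg (SE 0.17, adjusted p = 0.000974, 2.51-fold lower) and by 1.23 in DOX (SE 0.17, adjusted p = 0.00155, 2.35-fold lower). Its paralogue Ndufa4l2, known as a hypoxia-induced gene, was dim and differed by 0.08 and 0.15, without passing.

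The ubiquitous Cox7 forms were lower as well. Cox7b had 6.14, 6.10 and 5.99 in DOX_IFNg, 5.99, 6.05 and 5.87 in DOX and 6.59, 6.60 and 6.52 in Con. The groups were separate from Con, and it fell by 0.49 in DOX_IFNg (adjusted p = 0.00105) and by 0.60 in DOX (adjusted p = 0.000412), with an SE of 0.06 in each. Cox7a2 had 3.92, 4.01 and 4.04 in DOX_IFNg, 4.10, 4.12 and 3.88 in DOX and 4.48, 4.76 and 4.50 in Con. It was separate too, although its mean lay under the dim limit, and it fell by 0.59 in DOX_IFNg (SE 0.09, adjusted p = 0.00296) and by 0.55 in DOX (SE 0.09, adjusted p = 0.00462). Cox7c, also dim, was called at -0.18 in both comparisons (adjusted p = 0.0471 in DOX_IFNg and 0.0488 in DOX). Both Cox7c calls were lost when any single array was left out, with adjusted p-values of up to 0.139 and 0.141. The muscle form Cox7a1 differed by 0.17 in DOX_IFNg (95% interval -0.00 to 0.35) and 0.06 in DOX (-0.11 to 0.24), and the testis form Cox7b2 by 0.08 and -0.09. Neither passed, and both averaged under the limit.

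Cox6a2, the form of subunit 6a used in heart and skeletal muscle, was the only member called higher in both comparisons. It had 5.29, 5.32 and 5.78 in DOX_IFNg, 5.21, 5.31 and 5.32 in DOX and 4.67, 4.56 and 4.37 in Con. Every treated array was above every Con array, and all Con arrays lay under the dim limit, so the fold may be understated. It rose by 0.93 in DOX_IFNg (SE 0.13, adjusted p = 0.00177, 1.90-fold) and by 0.74 in DOX (SE 0.13, adjusted p = 0.00591, 1.68-fold). The ubiquitous form Cox6a1 had 8.83, 8.95 and 8.93 in DOX_IFNg, 9.01, 9.10 and 8.82 in DOX and 8.94, 8.88 and 8.83 in Con. Its groups overlapped, and its differences were 0.02 (95% interval -0.16 to 0.20) and 0.09 (-0.09 to 0.27). The 6a forms were not tested against each other. Cox8b, the other muscle form, had the lowest mean of complex IV, at 3.35, and differed by -0.16 and -0.19, neither of which passed. No member known as a muscle form other than Cox6a2 was called.

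The remaining members of complex IV did not pass against Con. Cox8a, the ubiquitous form of subunit 8, had 8.79, 8.88 and 8.91 in DOX_IFNg, 9.19, 9.36 and 9.03 in DOX and 8.92, 8.94 and 8.91 in Con. DOX was the highest group, by 0.27 over Con (SE 0.08, adjusted p = 0.0613), and DOX_IFNg differed from Con by -0.07 (adjusted p = 0.666). The testis form Cox8c differed by 0.23 in DOX_IFNg and 0.19 in DOX. Cox4i1, the common form of the largest nuclear-encoded subunit, differed by -0.17 and -0.06, and Cox4i2, its lung form, by 0.08 and 0.15. Cox5a had 10.05, 10.29 and 10.51 in DOX_IFNg, 10.47, 10.76 and 10.61 in DOX and 10.63, 10.77 and 11.37 in Con. It was the nearest of these to a call, at -0.64 in DOX_IFNg (SE 0.20, adjusted p = 0.0572) and -0.31 in DOX (adjusted p = 0.378). Cox5b, Cox6c and Cox7a2l, a factor of respiratory supercomplexes, lay between -0.15 and 0.12 in DOX_IFNg and between -0.11 and 0.21 in DOX. Ndufa4 had the highest mean level counted with complex IV, at 12.3.

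**Figure D3:**
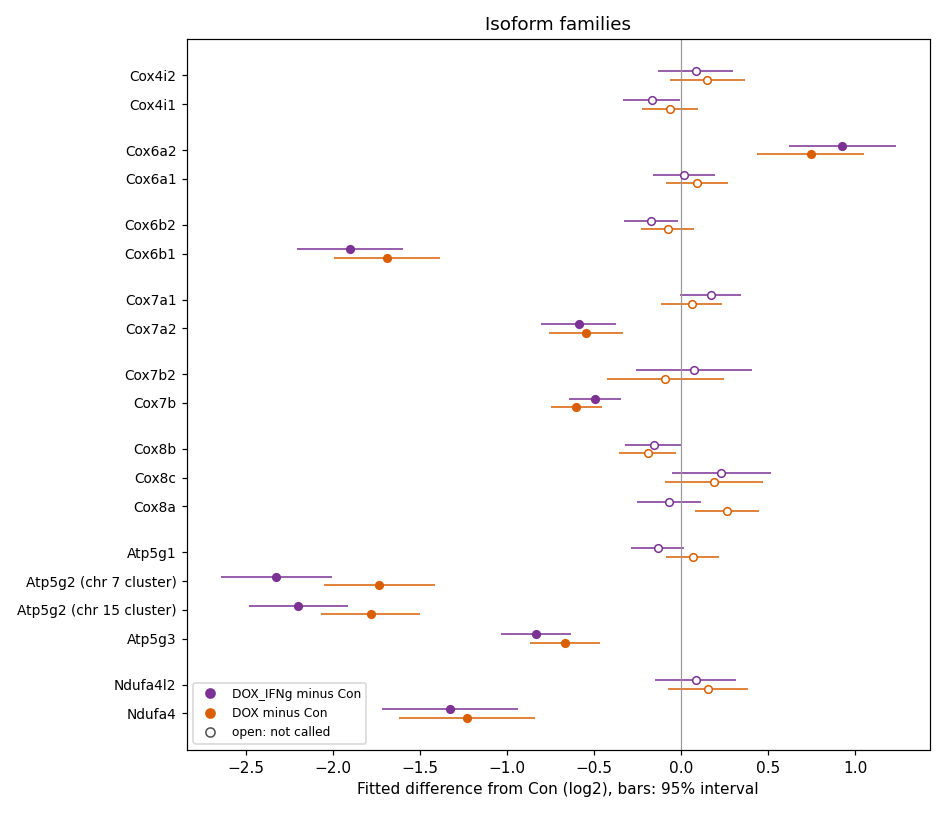
Fitted log2 differences from Con for the isoform families of complexes IV and V, with 95% intervals and open points where the adjusted p was 0.05 or more, DOX_IFNg above DOX for each gene. Cox6b1, Cox7a2, Cox7b, Atp5g2, Atp5g3 and Ndufa4 lie to the left of 0 and Cox6a2 to the right, while both intervals of Atp5g1 and Cox6a1 cross 0.

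Complex I had 5 of 32 clusters called lower and none higher in DOX_IFNg, and 2 lower and 1 higher in DOX. The lower calls were 15.6% of its clusters in DOX_IFNg, between the 9.36% of all clusters and the 19.6% of all clusters above the dim limit, where 26 of the 32 lay. In DOX, 9.38% of its clusters were called in either direction, against 15.5% of all clusters and 33% of all clusters above the limit. The lower count in DOX_IFNg was 2 without Con 2, DOX_IFNg 1 or DOX_IFNg 2, 3 without Con 3 and 8 with the filter on dim clusters. Its median difference was -0.10 in DOX_IFNg. In DOX the median was -0.037, with a range of -0.069 without DOX 2 to -0.010 without Con 3, and -0.018 with the array set term. Ndufb4b, an accessory subunit gene closely related to Ndufb4, had 9.21, 9.24 and 9.42 in DOX_IFNg, 9.13, 9.38 and 8.83 in DOX and 10.52, 10.40 and 10.67 in Con. It fell by 1.24 in DOX_IFNg (SE 0.14, adjusted p = 0.000413, 2.36-fold lower) and by 1.42 in DOX (SE 0.14, adjusted p = 0.000218, 2.67-fold lower). All treated arrays were below all Con arrays. The cluster annotated to both Ndufb4 and Gm3244, which is no member, differed by -0.54 in DOX_IFNg (adjusted p = 0.00965) and -0.48 in DOX (adjusted p = 0.0177) in the fit of every cluster, and how the array's probes divide between these close copies was not tested.

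Of the 6 core subunits of complex I among the members, Ndufs8, which carries iron-sulfur clusters, was called in both comparisons. Ndufs8 had 5.86, 5.74 and 6.03 in DOX_IFNg, 5.98, 5.98 and 5.87 in DOX and 6.66, 6.43 and 6.68 in Con. Its groups were separate from Con, and it fell by 0.72 in DOX_IFNg (SE 0.09, adjusted p = 0.00106) and by 0.65 in DOX (SE 0.09, adjusted p = 0.00194). Ndufv2, which holds an iron-sulfur cluster next to the site of NADH oxidation, fell by 0.28 in DOX_IFNg (SE 0.06, adjusted p = 0.0185) and differed by -0.11 in DOX (adjusted p = 0.333). Ndufv1, which binds NADH, Ndufs1, Ndufs3 and Ndufs7 did not pass, with differences from -0.39 to -0.01 in DOX_IFNg and from -0.15 to 0.08 in DOX. The accessory subunits Ndufb10 and Ndufb11 of the membrane arm fell by 0.23 (adjusted p = 0.0171) and 0.37 (adjusted p = 0.0338) in DOX_IFNg, and each differed by -0.18 in DOX without passing. The DOX_IFNg calls of Ndufb10, Ndufb11 and Ndufv2 were each lost without Con 2, DOX_IFNg 1 or DOX_IFNg 2. That of Ndufv2 was also lost without Con 3, and that of Ndufb11 without Con 1, Con 3 or DOX 1. Their adjusted p-values then reached 0.0666, 0.106 and 0.0668.

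Ndufa6, an accessory subunit of the matrix arm, had 4.64, 4.76 and 4.87 in DOX_IFNg, 4.92, 4.97 and 4.83 in DOX and 4.56, 4.42 and 4.65 in Con. The DOX arrays lay above Con, and the DOX_IFNg arrays overlapped with it. It rose by 0.36 in DOX (SE 0.08, adjusted p = 0.0181) and differed by 0.21 in DOX_IFNg (adjusted p = 0.122). The DOX call did not hold without Con 2, DOX 1 or DOX 2, with an adjusted p of up to 0.0691. The highest mean of complex I was that of Ndufb9, at 13.98, with differences of 0.13 and 0.26 that did not pass (adjusted p = 0.556 and 0.184). The lowest was that of Ndufc1, at 3.82, with a difference of 0.02 in each comparison. Over all 32 clusters the differences ran from -1.24 to 0.28 in DOX_IFNg and from -1.42 to 0.37 in DOX.

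Complex II had 2 of 4 genes called lower in DOX_IFNg and 1 in DOX. That is 50% and 25% of only 4 genes, against 9.36% and 7.52% of all clusters and 19.6% and 15.7% of those above the dim limit. Sdha, the flavoprotein that oxidises succinate and the brightest of the 4 with a mean of 6.06, had 5.96, 5.90 and 5.99 in DOX_IFNg, 6.04, 6.06 and 6.02 in DOX and 6.21, 6.26 and 6.16 in Con. It fell by 0.26 in DOX_IFNg (SE 0.05, adjusted p = 0.00700), and its -0.17 in DOX missed the threshold (adjusted p = 0.0515), although the DOX arrays lay below Con. Sdhd, a membrane anchor, had 4.96, 4.83 and 4.99 in DOX_IFNg, 4.95, 4.96 and 4.95 in DOX and 5.91, 5.37 and 5.22 in Con. Con 1 lay far above the other Con arrays. Sdhd fell by 0.57 in DOX_IFNg (SE 0.15, adjusted p = 0.0355) and by 0.55 in DOX (SE 0.15, adjusted p = 0.0462), and both calls were lost without Con 2 or any 1 treated array (adjusted p up to 0.113 and 0.121). Over all 18 alternative settings the DOX call of Sdhd was lost in 12 and its DOX_IFNg call in 9. Sdhb, the iron-sulfur subunit, differed by -0.00 and 0.13, and Sdhc, the other anchor and the dimmest at 4.50, by -0.16 and -0.19. None of these passed.

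Complex III had 2 of 8 genes called lower in DOX_IFNg and 1 in DOX. That is 25% and 12.5% of its genes, against 9.36% and 7.52% of all clusters and 19.6% and 15.7% of those above the dim limit. Uqcrh, the hinge protein that helps cytochrome c1 meet cytochrome c, had 4.95, 4.93 and 4.94 in DOX_IFNg, 5.08, 5.19 and 4.89 in DOX and 5.59, 5.65 and 5.61 in Con. Con and DOX_IFNg arrays were each tightly grouped, with no overlap between treated and Con arrays. It fell by 0.68 in DOX_IFNg (SE 0.07, adjusted p = 0.000408) and by 0.56 in DOX (SE 0.07, adjusted p = 0.00116). Uqcr11, the smallest subunit, fell by 0.22 in DOX_IFNg (SE 0.06, adjusted p = 0.0386) and differed by -0.11 in DOX (adjusted p = 0.325). Its call was lost without Con 2, Con 3, DOX 1, DOX_IFNg 2 or DOX_IFNg 3 (adjusted p up to 0.121). The core proteins Uqcrc1 and Uqcrc2, the Rieske iron-sulfur protein Uqcrfs1, and Uqcrb, Uqcrq and Uqcr10 did not pass, with differences from -0.28 to 0.08 in DOX_IFNg and from -0.21 to 0.23 in DOX. Mean levels in complex III ran from 3.76 for Uqcr10 to 7.28 for Uqcrc2.

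The 6 clusters with the largest falls in DOX were those of Atp5g2, Cox6b1, Ndufb4b, Ndufa4 and Atp5mpl, and the first 5 of these clusters were also bright, with means from 9.65 to 13.1. Differences of bright clusters were wider in general. In the brightest of 20 equal bins of all clusters, with a median level of 12.9, the 5th, 50th and 95th percentiles of DOX minus Con were -1.27, -0.28 and 0.81. In the next bin, with a median level of 8.10, the 5th and 95th percentiles were -0.999 and 1.24. The differences of both Atp5g2 clusters, Cox6b1 and Ndufb4b lay below the 5th percentile of either bin, and that of Ndufa4, at -1.23, lay between them.

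**Figure D4:**
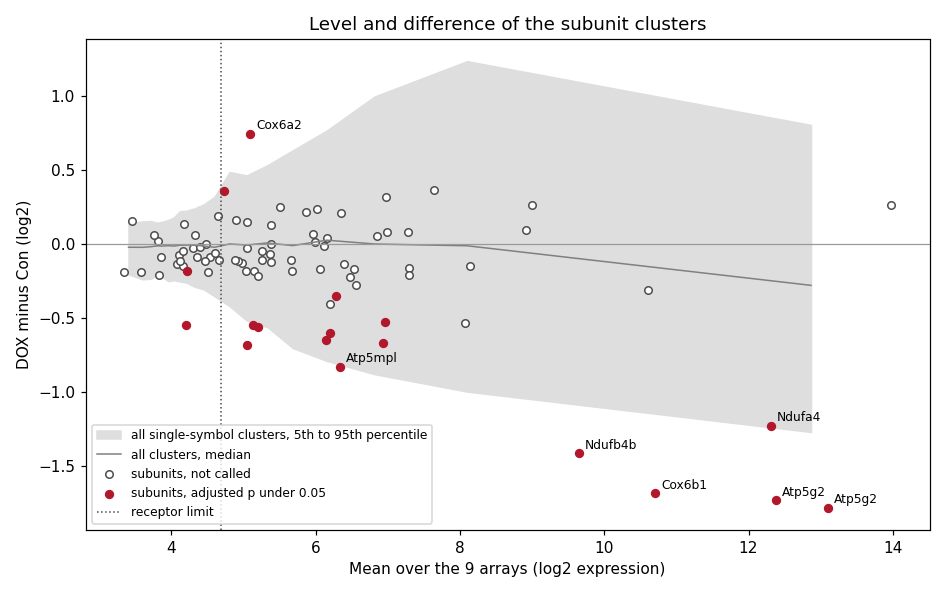
DOX minus Con (log2) of the 86 clusters against their mean level over the 9 arrays, filled where called, with the 5th to 95th percentile (grey band) and the median (grey line) of all single-symbol clusters in 20 bins of level, and the dim limit at 4.69 (dotted). The band widens with level, to -1.27 and 0.81 in the brightest bin, and both Atp5g2 clusters lie below it at -1.78 and -1.73.

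Interferon gamma on top of doxorubicin gave no call. In DOX_IFNg minus DOX, 0 of 86 members passed by limma, and 0% of all 30376 clusters did. At an unadjusted p under 0.05 there were 9 of the 86 members and 1517 of the 30376 clusters. Above the dim limit there were 7 of 60 members and 792 of 12212 clusters. The median difference of the members was -0.09, against -0.01 over all clusters and -0.03 over those above the dim limit. Below 0 lay 66 members (76.7%), against 54.1% of all clusters and 59.7% of those above the dim limit. The DOX_IFNg arrays all lay below the DOX arrays in 15 of the 86 members and above them in 1, while 6.67% and 4.6% of all clusters did so. The members with the smallest p were Cox8a at -0.33 (SE 0.08, 95% interval -0.52 to -0.15, adjusted p = 0.918), the Atp5g2 cluster named for chromosome 7 at -0.59 (SE 0.14, -0.91 to -0.27, adjusted p = 0.918) and Uqcr10 at -0.22 (SE 0.06, -0.36 to -0.07, adjusted p = 0.936). After these came the Atp5g2 cluster named for chromosome 15 at -0.41 (SE 0.12, adjusted p = 0.966) and Ndufv2 at -0.17 (SE 0.06, adjusted p = 0.975). A missed threshold does not show that the groups are alike, and the median cluster had a 95% interval of about ±0.19. The larger count of calls in DOX_IFNg minus Con than in DOX minus Con is thus not matched by any member that differs between the treated groups past the threshold.

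Assembly factors, the proteins that build the complexes without staying in them, were followed as a companion list, of which 43 of 54 were measured. Against Con, 7 were called higher and 4 lower in DOX_IFNg, and 7 higher and 2 lower in DOX, with median differences of 0.02 and 0.06. The higher share was 16.3% in each, against 7.92% of all clusters in DOX_IFNg and 7.98% in DOX. Among the 26 factors above the dim limit it was 23.1% in each, against 17% and 17.2% of all such clusters, so these shares are near the background. The lower shares were 9.3% in DOX_IFNg and 4.65% in DOX, against 9.36% and 7.52% of all clusters. In DOX_IFNg the counts were 4 higher without Con 2, and for lower calls 1 without DOX_IFNg 1, 2 without DOX_IFNg 2 and 2 without Con 3. The same 7 genes were higher in both comparisons, which share the Con arrays. Cox20, which helps mature the complex IV subunit Cox2, had 5.59, 5.73 and 5.90 in DOX_IFNg, 5.67, 5.83 and 5.44 in DOX and 4.86, 4.89 and 4.64 in Con. It rose by 0.94 in DOX_IFNg (SE 0.12, adjusted p = 0.000939) and by 0.85 in DOX (SE 0.12, adjusted p = 0.00170), with no overlap between treated and Con arrays. Higd2a, a factor of complex IV and supercomplex assembly, had 9.54, 9.31 and 9.43 in DOX_IFNg, 9.88, 10.10 and 9.39 in DOX and 8.79, 8.62 and 8.87 in Con. It rose by 0.67 (SE 0.16, adjusted p = 0.0237) and by 1.03 (SE 0.16, adjusted p = 0.00307), and its DOX arrays were the most spread.

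Surf1, mutated in human Leigh syndrome, rose by 0.50 in DOX_IFNg and 0.49 in DOX, Sco1, a copper chaperone, by 0.29 and 0.32, and Taco1, which activates translation of Cox1 RNA, by 0.37 and 0.54. Ttc19, a complex III factor, rose by 0.36 and 0.38, and Acad9, a complex I factor, by 0.19 and 0.22. The factors called lower in both were Atpaf1, a chaperone for the F1 head of ATP synthase, at -0.58 in DOX_IFNg (SE 0.07, adjusted p = 0.000673) and -0.52 in DOX (SE 0.07, adjusted p = 0.00122), and Bcs1l, which inserts the Rieske protein into complex III, at -0.22 and -0.28. Ndufaf7, a methyltransferase of complex I assembly, and Higd1a fell by 0.22 each in DOX_IFNg, with adjusted p-values of 0.0285 and 0.0441. Of 17 subunits and inhibitors that the symbol rule leaves out, 3 were measured, Ndufab1, Cyc1 and Atpif1, and none was called.

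**Figure D5:**
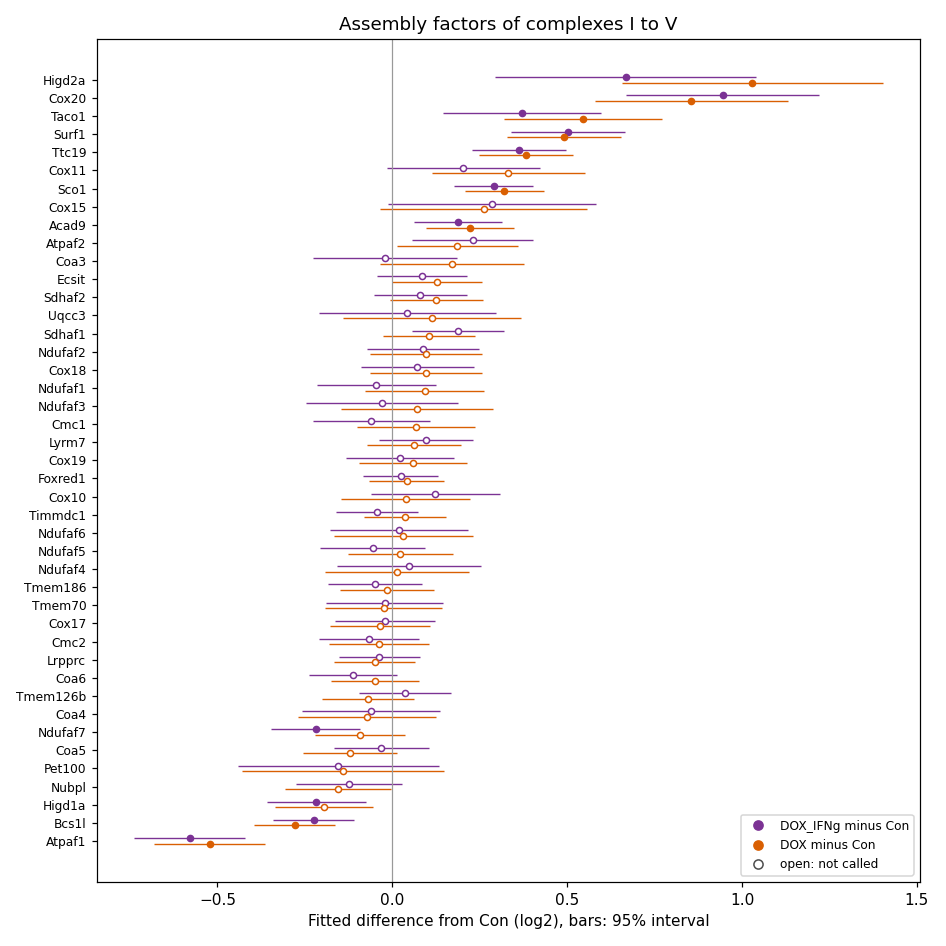
Fitted log2 differences from Con of the 43 assembly factors measured, ordered by DOX minus Con, with 95% intervals and open points where the adjusted p was 0.05 or more, DOX_IFNg above DOX for each gene. Higd2a and Cox20 lie farthest to the right, at 1.03 and 0.85 in DOX, and Atpaf1 farthest to the left, at -0.52 in DOX and -0.58 in DOX_IFNg.

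Of 20 genes of electron carriers, ubiquinone synthesis, dehydrogenases that feed ubiquinone, and the adenine nucleotide and phosphate carriers, 18 were measured. Against Con, 3 were called higher and 4 lower in DOX_IFNg, and 4 higher and 3 lower in DOX. Above the dim limit lay 10 of the 18, and of these 30% were higher and 40% lower in DOX_IFNg, against 17% and 19.6% of all such clusters, and 30% each way in DOX, against 17.2% and 15.7%, on counts of 3 or 4 genes. Slc25a5, a carrier that exchanges ADP for ATP across the inner membrane, had 13.20, 13.32 and 13.40 in DOX_IFNg, 13.62, 13.54 and 13.24 in DOX and 14.35, 14.40 and 14.21 in Con. It fell by 1.01 in DOX_IFNg (SE 0.11, adjusted p = 0.000331) and by 0.85 in DOX (SE 0.11, adjusted p = 0.000831), with no treated array in the Con range. Slc25a4, the form of that carrier known from heart and skeletal muscle, fell by 0.56 (adjusted p = 0.00183) and 0.42 (adjusted p = 0.00867). Gpd2, which feeds electrons from glycerol phosphate to ubiquinone, fell by 0.33 and 0.36. The higher calls were these. Coq10a rose by 0.73 in DOX_IFNg (adjusted p = 0.00234) and 0.67 in DOX (adjusted p = 0.00368), Coq9 by 0.56 and 0.48, and Coq5 by 0.51 and 0.54. Coq2 rose by 0.21 in DOX (adjusted p = 0.0467) and differed by 0.20 in DOX_IFNg (adjusted p = 0.0515), while Coq3 fell by 0.23 in DOX_IFNg (adjusted p = 0.0290). Higher calls of this list in DOX numbered 3 when any 1 array other than Con 3 or DOX_IFNg 1 was left out. Lower calls in DOX_IFNg numbered 3 without Con 1, Con 2, DOX_IFNg 2 or DOX_IFNg 3. Cycs, cytochrome c, did not pass, at -0.17 and -0.07.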

How the data were processed

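Total RNA of 9 HL-1 samples was measured on 9 arrays, 3 per group, and the groups and replicate numbers came from the labels. The authors deposited log2 expression values per transcript cluster, made with RMA per the submitters' processing notes. RMA subtracts background, makes arrays comparable and merges probes of a cluster, and it compresses differences of dim probes. No version of it is given, and the log2 scale was read from the values. No further normalization was applied. Of 65527 clusters, 32493 were listed in the platform annotation, 30376 of them with 1 symbol and 2117 with several, and 33034 are unnamed here. The symbols of all 86 member clusters were found in RefSeq, with Atp5f1, Atp5l2 and Atp5sl as synonyms of Atp5pb, Atp5l2-ps and Dmac2. For 2 clusters, of Atp5g2 and Atp5l, the chromosome in the cluster name was not that of the RefSeq gene. Left out were 2 clusters marked -ps and 4 clusters with several symbols.

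Group means were fitted by lmFit and eBayes of limma 3.58.1, under R 4.3.3, to all 9 arrays and all 30376 clusters, with 6 residual and 2.41 prior degrees of freedom. Tests were two-sided, with Benjamini-Hochberg adjustment over all clusters of a comparison, and a call is an adjusted p under 0.05. The procedure was tested on simulated data. The number of arrays limits the precision. Named were all called members, all tissue isoforms, the highest and lowest member of each complex and the 5 members with the smallest p in DOX_IFNg minus DOX. The members, lists and rules were chosen with earlier results of these data known.

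Same-numbered arrays of different groups had correlated deviations from -0.14 to 0.36 over 9 pairs, 6 of them negative, so the numbers were not taken as pairs. Alternatives were quantile normalization, median centring, a filter on dim clusters, 1 cluster per symbol, every cluster of the table, a replicate block, a fit of the 2 groups compared, trend and robust variance, and leaving out each array. A term that sets the arrays sharing many identical values apart from the remaining arrays was added after seeing the data.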

Additional observations from a re-analysis of the deposited data

How the results depend on the processing

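Every direction of a called member was kept in every alternative run, and 13 of 18 calls in DOX minus Con and 15 of 28 in DOX_IFNg minus Con were kept in all of them. Leaving out 1 array at a time gave 12 to 17 members lower and 1 to 4 higher in DOX minus Con, with a median difference of -0.11 to -0.08. In DOX_IFNg minus Con it gave 16 to 26 lower and 1 higher, with a median of -0.18 to -0.14, and in DOX_IFNg minus DOX no call, with a median of -0.11 to -0.04. In DOX minus Con, higher calls numbered 5 after quantile normalization and 4 with the filter on dim clusters, and the median was -0.052 with the array set term. In DOX_IFNg minus Con, testing every cluster of the table left 17 members lower, quantile normalization gave 2 higher, and the filter on dim clusters, which keeps 60 members, gave a median of -0.22. The cause was not tested, except that the full table and the filter change which clusters are tested. With a replicate block, 14 members were lower and 2 higher in DOX minus Con, and 23 lower and 1 higher in DOX_IFNg minus Con. Under the block complex II had 0 lower calls in DOX minus Con, against 1 without it, and complex III 1 in DOX_IFNg minus Con, against 2. The calls lost were those of Sdhd and Cox7c in DOX minus Con, and of Ndufb11, Uqcr11, Cox7c, Atp5j and Atp5o in DOX_IFNg minus Con. In that last comparison complex IV still had 5 lower calls under the block, so another of its clusters gained a call. With the array set term, 15 were lower and 3 higher in DOX minus Con and 22 lower and 1 higher in DOX_IFNg minus Con. The number of arrays and the dim signal of 26 members limit what could be called.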
